A study of Homo sapiens with 5 samples.

Results

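The neurexin, neuroligin and neuronal pentraxin genes were followed in HEK293T cells with and without ascorbic acid (vitamin C). HEK293T is an established line derived from human embryonic kidney. Rows of the deposited count table were taken by gene symbol, and all 8 members (NRXN2, NRXN3, NLGN1, NLGN2, NLGN3, NPTX1, NPTX2 and NPTXR) were found among its 28278 symbols. The members were chosen by symbol as synaptic adhesion and pentraxin genes, with the fold changes of the same contrast, ascorbic acid over control, already known. Their fold changes and p-values are therefore a description of this comparison and not independent evidence for it. There were 3 control libraries, from wild-type cells with no treatment named, and 2 libraries from cells given ascorbic acid in culture. The labels give no dose. They name treatments of 24 h and 36 h, for tests of DNA and of RNA methylation, and do not tie either to these libraries, and the medium was renewed every 6 h. Separate cultures are not stated for the libraries of a group, so p-values here measure only the spread among libraries, which may be technical.

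Neurexins are presynaptic membrane proteins that bind postsynaptic neuroligins across the synaptic cleft, and each neurexin gene gives long alpha and short beta forms from separate promoters. Neuroligins differ by synapse: NLGN1 is found mainly at excitatory synapses, NLGN2 at inhibitory synapses, and NLGN3 at both. The secreted pentraxins NPTX1 and NPTX2 and the membrane-bound pentraxin receptor NPTXR assemble into complexes that gather AMPA-type glutamate receptors at excitatory synapses. Counts per gene pool all forms, so alpha and beta neurexins and splice variants were not separated.

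Libraries held 35106664 to 57212071 gene counts, and levels are given as CPM, the count per 1000000 counts of the library after TMM scaling of the totals. Among counts from 1 to 10, 71.3 to 75.9% were even in each library, so low counts may represent fewer sequenced fragments than their number. Of 15271 tested genes, 14.3% passed (edgeR quasi-likelihood test, Benjamini-Hochberg adjusted p under 0.05). In numbers 879 genes (5.76%) were lower and 1303 (8.53%) higher with ascorbic acid, a split that was 389 lower and 1712 higher when library totals replaced TMM. All 8 members passed the filter on low counts. Of these 2 fell, 1 rose and 5 did not pass, and the median log2 fold change was 0.07 over the members and 0.00 over all tested genes. Both treated libraries lay below all controls for 3 members and above them for 2, against 20.4% and 22.6% of all tested genes. With the choice of members known, nothing is read from these shares.

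**Figure D1:**
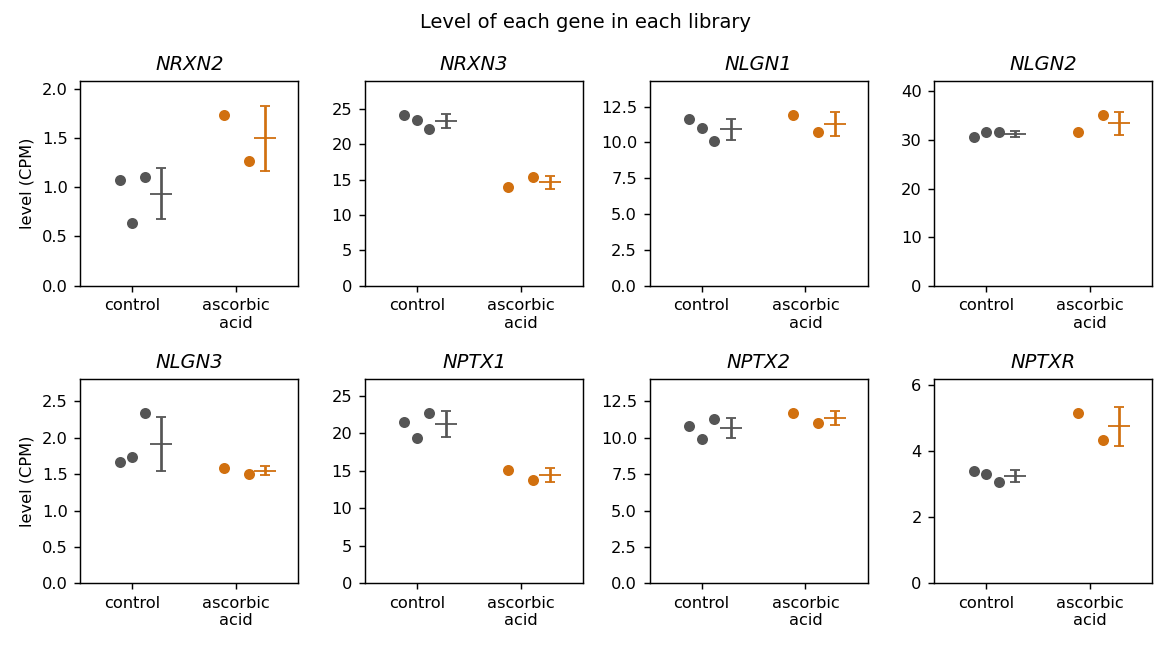
Level of each gene in CPM (vertical axis, from 0) in each library (points), with the group mean and SD beside them for control (n = 3) and ascorbic acid (n = 2). The treated points of NRXN3, NPTX1 and NLGN3 lie below all control points, and those of NPTXR and NRXN2 above them. NLGN3 and NRXN2 did not pass the test.

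NRXN3 had the higher level of the neurexin members and fell 1.59-fold. Its gene spans 1698 kb (chromosome 14, 78170373 to 79868290, plus strand, GRCh38). NRXN3 had 24.1, 23.4 and 22.2 CPM in controls 1 to 3 and 14 and 15.3 CPM in treated 1 and 2. All controls lay within 2 CPM of each other, and both treated libraries lay well below the lowest of them. The control mean was 23.2 ± 0.938 CPM (SD, n = 3) and the treated mean 14.7 ± 0.948 CPM (SD, n = 2). On the log2 scale the fold change was -0.67 ± 0.08 (SE), with an edgeR adjusted p of 9.57e-07, and both treated libraries were lower than every control. By p it ranked 46 of 15271 tested genes, and by log2 fold change 133 from the lowest.

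NRXN2, the other neurexin among the members (chromosome 11, 64606174 to 64723188, minus strand), was far scarcer. Controls 1 to 3 held 60, 24 and 38 counts of it and the treated libraries 84 and 54, or 1.07, 0.632 and 1.10 CPM against 1.73 and 1.26 CPM. Both treated values were above the highest control, treated 2 by less than the SD of the controls, 0.26 CPM. The log2 fold change was 0.68 ± 0.28 with a 95% interval of 0.11 to 1.24, and it did not pass (edgeR adjusted p = 0.0977). The controls' coefficient of variation was 27.9%, where counting error alone would give 16.5% if every count were a separate fragment. It would give more if counts represent fewer fragments than their number. Control replicate 2 was the low library.

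Shares of the summed NRXN2 and NRXN3 counts do not depend on how libraries are scaled. NRXN3 held 95.8, 97.4 and 95.3% of this sum in the controls and 89 and 92.4% with ascorbic acid. NRXN2 held 4.24, 2.62 and 4.71% in the controls, and 11% (95% Wilson interval 8.98 to 13.4%) and 7.61% (5.88 to 9.79%) in the treated libraries. The lower of these treated intervals overlaps the interval of control 3, 3.45 to 6.4%, so the NRXN2 share is not separated in every pair of libraries at this depth. Such intervals cover counting error only and take every count as a separate fragment. They are too narrow if counts represent fewer fragments than their number. Summed over these 2 genes, the level was 25.1, 24.1 and 23.3 CPM in the controls and 15.7 and 16.6 CPM with ascorbic acid. Both treated sums lay below all control sums, although the NRXN2 values were higher.

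The windows upstream of the NRXN3 starts are shown because NRXN3 has the largest change of the 3 called members and has several starts far apart, which a gene count cannot separate. The RefSeq table used here (GRCh38.p14) holds 3 of its starts. Each window is the 250 bases before a start, 5′ to 3′ on the plus strand, with CpG dinucleotides, the sites of DNA methylation, in capitals. NPTX2, whose level did not pass the test, is shown beside them as the window with the most CpG among the members found. The windows lie at chr14:78170123-78170372, chr14:78403469-78403718, chr14:79279130-79279379 and chr7:98617035-98617284.
NRXN3 upstream start: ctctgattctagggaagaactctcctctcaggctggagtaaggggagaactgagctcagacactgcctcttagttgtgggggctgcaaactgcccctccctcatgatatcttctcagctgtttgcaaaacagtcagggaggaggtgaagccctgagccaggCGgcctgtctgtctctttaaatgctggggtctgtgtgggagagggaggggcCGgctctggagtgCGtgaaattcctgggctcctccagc
NRXN3 middle start: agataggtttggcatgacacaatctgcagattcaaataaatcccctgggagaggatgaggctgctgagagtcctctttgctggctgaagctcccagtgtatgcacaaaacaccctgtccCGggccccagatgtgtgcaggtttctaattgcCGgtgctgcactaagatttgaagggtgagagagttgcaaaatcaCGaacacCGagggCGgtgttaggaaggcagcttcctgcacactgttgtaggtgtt
NRXN3 downstream start: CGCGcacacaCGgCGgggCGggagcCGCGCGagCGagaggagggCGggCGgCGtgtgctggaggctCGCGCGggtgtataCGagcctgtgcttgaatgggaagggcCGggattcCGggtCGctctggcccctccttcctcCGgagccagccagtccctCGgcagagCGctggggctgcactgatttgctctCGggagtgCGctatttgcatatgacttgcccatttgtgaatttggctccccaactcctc
NPTX2: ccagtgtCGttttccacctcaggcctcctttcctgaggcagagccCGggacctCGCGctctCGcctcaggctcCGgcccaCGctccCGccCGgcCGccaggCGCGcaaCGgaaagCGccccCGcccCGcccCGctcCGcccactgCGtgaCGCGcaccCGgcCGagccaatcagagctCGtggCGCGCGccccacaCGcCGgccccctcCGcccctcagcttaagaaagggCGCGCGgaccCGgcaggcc

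The NRXN3 windows held 3, 5 and 24 CpG, in order along the chromosome, against a median of 11 over 35116 promoter windows of that length. The upstream window was poor in CpG, with fewer found in 22.9% of all windows, and the downstream window had more than 76.3% of them. NPTX2 had 34 CpG, more than 93.2% of windows. The GC box, GGGCGG on either strand, occurred 0, 1 and 3 times in the NRXN3 windows and 5 times in that of NPTX2. It is present in 42.6% of all windows. Among the other members, NLGN1 had windows with 19 and 17 CpG at 2 starts, NLGN3 had 16 and NLGN2 had 2. The NLGN2 window (chr17:7407595-7407844) lies inside the gene span of GENCODE, which begins at 7404874. It therefore does not describe the sequence before the most upstream NLGN2 start. The table matched 5 of the 8 members, NRXN3, NLGN1, NLGN2, NLGN3 and NPTX2. NRXN2 and the called members NPTX1 and NPTXR had no window, so no relation of CpG to the fold changes is read here. Methylation was not measured in these libraries, and which NRXN3 start was in use was not determined.

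No neuroligin gene passed the test. NLGN2 (chromosome 17, 7404874 to 7419860), the inhibitory-synapse member, had 30.6, 31.7 and 31.6 CPM in the controls and 31.7 and 35.1 CPM with ascorbic acid. The ranges overlap, since treated 1 lies at the level of controls 2 and 3. Its log2 fold change was 0.09 ± 0.07 (95% interval -0.05 to 0.23, edgeR adjusted p = 0.396). NLGN1 (chromosome 3, 173396284 to 174286644), the excitatory-synapse member, had 11.6, 11 and 10.1 CPM against 11.9 and 10.7 CPM. These values are interleaved, with a log2 fold change of 0.05 ± 0.10 (95% interval -0.15 to 0.25). For both genes the interval leaves out a decrease as large as that of NRXN3.

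NLGN3 (chromosome X, 71144831 to 71171201) was the scarcest neuroligin, with counts of 94, 66 and 81 in controls 1 to 3 and of 77 and 64 with ascorbic acid. In CPM this was 1.67, 1.74 and 2.34 against 1.59 and 1.5. Both treated values lay just below the lowest control, and control 3 stood above the others. The log2 fold change of -0.29 ± 0.22 had a 95% interval of -0.75 to 0.16 and did not pass (edgeR adjusted p = 0.407), and that interval still holds a decrease as large as the one of NPTX1. NLGN4X had 0 counts in all 5 libraries. As a family the neuroligins had 43.9, 44.4 and 44.1 CPM in the controls and 45.1 and 47.2 CPM with ascorbic acid. NLGN2 supplied 69.8 to 71.8% of their counts in the controls and 70.2 and 74.3% with ascorbic acid.

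**Figure D2:**
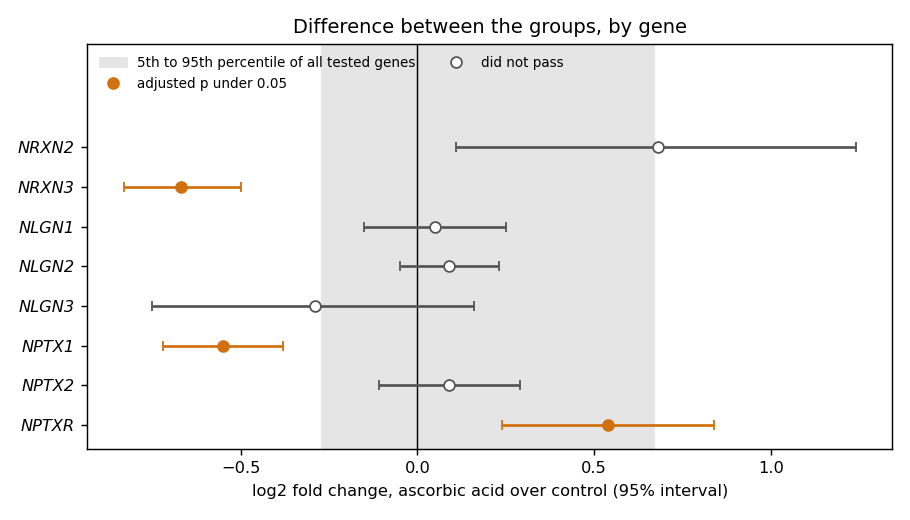
Log2 fold change of each gene, ascorbic acid over control, with its 95% interval from the edgeR fit (horizontal axis) against a band that holds the 5th to 95th percentile of all 15271 tested genes, -0.27 to 0.67. The filled points NRXN3 (-0.67), NPTX1 (-0.55) and NPTXR (0.54) passed, with NRXN3 and NPTX1 to the left of the band and NPTXR inside it.

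NPTX1, a secreted pentraxin of neurons, fell 1.46-fold (chromosome 17, 80467148 to 80477843, minus strand). It had 21.5, 19.3 and 22.7 CPM in the controls and 15.1 and 13.8 CPM with ascorbic acid. The groups do not overlap, and the gap between them is larger than the range within either. The control mean was 21.2 ± 1.73 CPM (SD, n = 3) and the treated mean 14.5 ± 0.93 CPM (SD, n = 2). The log2 fold change was -0.55 ± 0.09 with an edgeR adjusted p of 4.53e-05, and it ranked 136 of 15271 genes by p and 199 from the lowest by log2 fold change. NPTX2, its closest relative among the members and also secreted (chromosome 7, 98617297 to 98629868), had 10.8, 9.92 and 11.3 CPM against 11.7 and 11 CPM. These values overlap, and the log2 fold change was 0.09 ± 0.10 (95% interval -0.11 to 0.29, edgeR adjusted p = 0.584).

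NPTXR, the membrane-bound pentraxin (chromosome 22, 38818452 to 38843982, minus strand), moved the other way and rose 1.46-fold. Controls 1 to 3 held 192, 126 and 106 counts of it and the treated libraries 251 and 186, or 3.41, 3.32 and 3.06 CPM against 5.17 and 4.35 CPM. The controls were tight and the treated libraries were above all of them but apart from each other. The controls' coefficient of variation was 5.53%, below the 8.61% that counting error alone would give, so their closeness may understate the spread. The control mean was 3.26 ± 0.180 CPM (SD, n = 3) and the treated mean 4.76 ± 0.583 CPM (SD, n = 2). The log2 fold change was 0.54 ± 0.15 with an edgeR adjusted p of 0.0117. This call ended without treated replicate 1 (0.41, adjusted p = 0.184), with DESeq2 (0.54, adjusted p = 0.0547), in a limma fit on cyclic loess values (0.41, adjusted p = 0.0820) and against a fold of 1.2 (adjusted p = 0.220), with adjusted p from 0.00566 to 0.220 over all 17 other settings that gave a value. The calls of other genes also varied with level. Of 2284 genes with a mean of 1 to 5 CPM, 14.5% were called higher and 0.613% lower, with a median log2 fold change of 0.15. Of 3811 genes with 15 to 50 CPM, the range that holds NRXN3 and NPTX1, 8.63% were called higher and 5.59% lower. Cyclic loess takes out a trend with level, and the NPTXR value on that scale is the 0.41 given above.

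Within the pentraxins the shares did not overlap between the groups. A share depends on the other genes of the sum, and the NPTX2 level itself did not pass the test. NPTX1 made up 60.2, 59.3 and 61.3% of their counts in the controls and 47.2 and 47.4% with ascorbic acid. NPTX2 went from 30.2, 30.5 and 30.4% to 36.6 and 37.7%, and NPTXR from 9.55, 10.2 and 8.26% to 16.2 and 14.9%. Replicates of a group thus differed by at most 2 percentage points for each of these genes, less than the gap between groups. Counts of NPTX1 per count of NPTX2 were 1.99, 1.95 and 2.02 in the controls and 1.29 and 1.26 with ascorbic acid. Counts of NPTX1 per count of NPTXR were 6.31, 5.83 and 7.42 against 2.92 and 3.17. The summed pentraxin level, 35.7, 32.6 and 37.1 CPM against 32.0 and 29.1 CPM, moved less than NPTX1 alone.

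**Figure D3:**
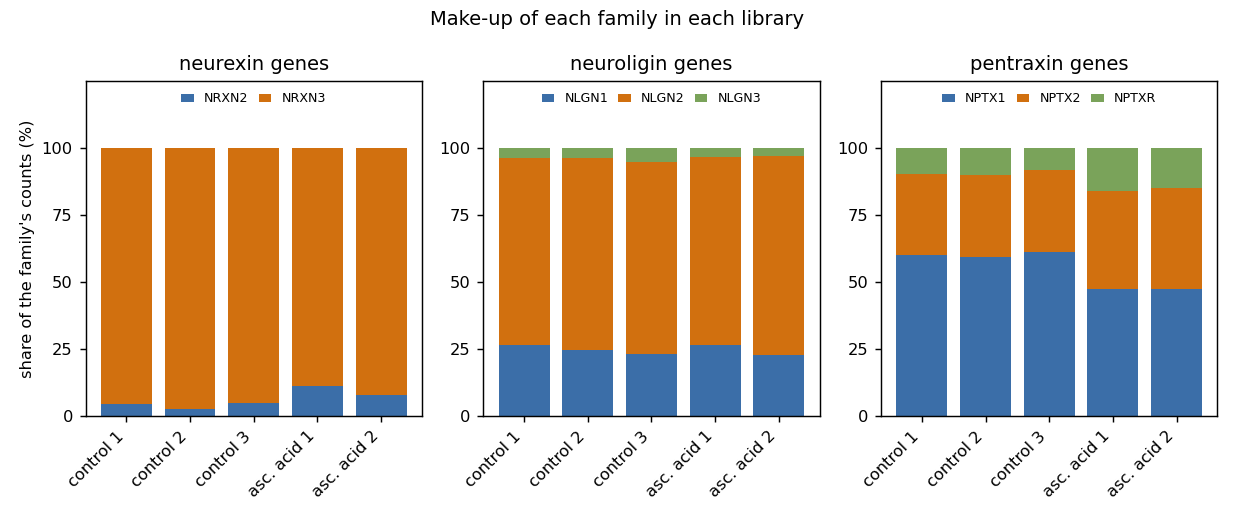
Share of each family's counts held by each gene (vertical axis, percent) in each of the 5 libraries, for the neurexin, neuroligin and pentraxin genes. NPTX1 takes a smaller part of the pentraxin bars with ascorbic acid (47.2 and 47.4%, against 59.3 to 61.3%), NRXN2 a larger part of the neurexin bars, and NLGN2 the most of every neuroligin bar.

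Levels of different genes were compared per kilobase of merged exon length (GENCODE release 29). In the controls the order was NLGN2 (5.64 ± 0.109 CPM per kb), NPTX1 (4.14 ± 0.338), NPTX2 (3.95 ± 0.253), NRXN3 (1.66 ± 0.0672), NLGN1 (1.25 ± 0.0839), NPTXR (0.564 ± 0.0312), NLGN3 (0.481 ± 0.0926) and NRXN2 (0.126 ± 0.0352), with the SD over 3 libraries. The neighbours NPTX1 and NPTX2 differed by less than the SD between libraries, although their count ratio was steady within the controls (1.95 to 2.02), and NPTXR and NLGN3 also differed by less than the larger SD. With ascorbic acid NPTX1, at 2.82 ± 0.182 CPM per kb (SD, n = 2), stood below NPTX2 at 4.2 ± 0.2. NRXN3 at 1.05 ± 0.0679 then stood below NLGN1 at 1.29 ± 0.0982. That second change of order depends on the length used: per kilobase of the longest transcript NRXN3 stayed above NLGN1, at 2.73 ± 0.110 against 1.32 ± 0.0888 in the controls and 1.72 ± 0.112 against 1.37 ± 0.104 with ascorbic acid. NRXN3 has 14 kb of merged exons and a longest transcript of 8504 bases, so the choice matters most for this gene. The GENCODE basic set places no exon of another gene over the exons of any member, and in RefSeq the antisense gene NRXN2-AS1 covers 0.027% of the NRXN2 exon bases.

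The genes whose values were most like those of NRXN3 and NPTX1 were found among 10580 other genes whose mean reached 5 CPM, by the root mean square difference of log2 CPM over the 5 libraries after centring each gene on its own mean. For NRXN3 they were SLC1A1, a glutamate transporter gene (0.0642), HOXB2, a homeobox gene (0.10), and LRP2, an endocytic receptor gene (0.12). SLC1A1 followed NRXN3 closely, with 23.5, 23.2 and 21.7 CPM in the controls and 15.3 and 14.8 CPM with ascorbic acid. For NPTX1 they were SCD5, a fatty acid desaturase gene (0.0811), MGC12916 (0.0877) and NELL2, a secreted protein gene of neurons (0.0880). NELL2 had 32.5, 30.2 and 31.1 CPM against 24.5 and 22.1 CPM. With 5 libraries in 2 groups, genes that fell by a like amount will be close by this measure.

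Genes that work with the members were described from 7 lists of neurexin ligands, scaffolds, receptor partners, processing enzymes, adhesion proteins and vesicle proteins, 181 genes in all without the members. Of 139 tested, 14 rose, 9 fell and 116 did not pass, which is 10.1% higher and 6.47% lower beside 8.53% and 5.76% of all tested genes, and their median log2 fold change was 0.00. Most of these genes thus showed no call, and the called ones went both ways. The counts moved with the library set: without control replicate 1 they were 7 higher and 4 lower, without treated replicate 1 they were 6 and 5, and without treated replicate 2 they were 8 and 8.

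Among 18 tested genes for other neurexin ligands 2 rose, 2 fell and 14 did not pass, with a median log2 fold change of -0.09. DAG1, which encodes dystroglycan, a receptor that binds neurexins, fell from 168, 173 and 171 CPM to 151 and 143 CPM, with -0.21 ± 0.05 (edgeR adjusted p = 0.00214). ADGRL1, the latrophilin 1 gene, also fell (-0.21 ± 0.06), although not without treated replicate 1 (-0.18, adjusted p = 0.0726). The secreted C1q-like genes C1QL1 (0.70 ± 0.20) and C1QL4 (0.73 ± 0.24) rose from means below 2 CPM. The C1QL1 call ended without control replicate 1 or treated replicate 1 (0.54 to 0.65, adjusted p = 0.0766 to 0.209), and the C1QL4 call without control replicate 1 or 3 or either treated replicate (0.58 to 0.75, adjusted p = 0.0554 to 0.166). Both also ended with DESeq2 and on cyclic loess values, and that of C1QL4 with the replicate block and with GC and length trends removed. Among the paralogs outside the members, PTX3, a long pentraxin of innate immunity, was the 1 gene tested and did not pass (0.71 ± 0.34, edgeR adjusted p = 0.172).

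Of 31 tested cytoplasmic scaffold genes 3 rose and 0 fell, 28 did not pass and the median was 0.09. The adaptor genes APBA2 (0.21 ± 0.07) and APBA3 (0.27 ± 0.09) and the synaptotagmin-like gene SYTL2 (0.85 ± 0.26) were those that rose. None of these calls held in every left-out library. APBA2 and APBA3 lost theirs without control replicate 1 or 2 or either treated replicate (0.19 to 0.21 and 0.23 to 0.28, adjusted p = 0.0853 to 0.170), and SYTL2 without control replicate 3 or treated replicate 2 (0.51 to 0.72, adjusted p = 0.0631 to 0.370). All 3 also ended with DESeq2, and that of SYTL2 with the replicate block and with cyclic loess. Those of APBA2 and APBA3 ended with GC and length trends removed. That of APBA3 ended with DESeq2 size factors and with cyclic loess too. Of 11 tested pentraxin partner and AMPA receptor genes 0 passed. The 2 highest, the reticulocalbin genes RCN1 (0.13 ± 0.05, edgeR adjusted p = 0.0583) and RCN2 (-0.03 ± 0.05), had means of 218 and 225 CPM in the controls, and exons of other genes cover 36.4% of the RCN1 exons on its own strand. RCN1 passed in 8 of its 18 other settings.

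Among 23 tested genes of neurexin processing, heparan sulfate synthesis and splicing 1 rose, 3 fell and 19 did not pass, with a median of -0.07. APH1B, a subunit gene of gamma-secretase, the protease that cleaves neurexin stubs in the membrane, rose from 6.91, 6.58 and 6.41 CPM to 11.5 and 10.6 CPM, with 0.73 ± 0.10 (edgeR adjusted p = 1.33e-05). It was the steadiest call of this list and ended in none of 18 other settings. KHDRBS3, an RNA-binding protein that regulates alternative splicing of neurexins, fell by 0.28 ± 0.08 on the log2 scale, from 20.9, 21.7 and 21.5 CPM to 17.2 and 18.1 CPM. Its call ended without control replicate 2 or treated replicate 1 (-0.26 to -0.24, adjusted p = 0.0543 to 0.114). The heparan sulfate sulfotransferase genes HS6ST2 (-0.15 ± 0.05) and HS2ST1 (-0.18 ± 0.06) also fell. Both lost the call without control replicate 1 or 2 or treated replicate 1, HS6ST2 also without treated replicate 2 (-0.16 to -0.13, adjusted p = 0.0586 to 0.258). Library totals ended both calls too. The groups overlap for HS2ST1.

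Of 31 tested genes of other synaptic adhesion systems 4 rose and 3 fell, 24 did not pass and the median was -0.05. TENM1, a teneurin that binds latrophilins, rose from 71.4, 73.8 and 71.3 CPM to 93.7 and 107 CPM, with 0.48 ± 0.06 (edgeR adjusted p = 4.96e-07), and ended in none of 18 other settings. LRFN4 (0.41 ± 0.09) and LRFN5 (0.52 ± 0.15), members of a family of postsynaptic leucine-rich repeat proteins, rose as well. SLITRK3, an adhesion gene of inhibitory synapses, fell (-0.39 ± 0.09), from 13.6, 15.4 and 15.7 CPM to 11.5 and 11.1 CPM. CADM1 (-0.21 ± 0.05) and NECTIN3 (-0.21 ± 0.06), immunoglobulin-type adhesion genes, fell by less. Library totals ended the NECTIN3 call. The LRFN5 call ended without control replicate 1 or either treated replicate (0.40 to 0.52, adjusted p = 0.0830 to 0.122), with DESeq2 and with cyclic loess. The CADM1 call ended without control replicate 1 (-0.17, adjusted p = 0.0570) and the NECTIN3 call without control replicate 1 or 2 or treated replicate 1 (-0.21 to -0.14, adjusted p = 0.0735 to 0.220).

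Of 24 tested presynaptic vesicle genes 4 rose and 1 fell, 19 did not pass and the median was 0.17. That is 16.7% higher and 4.17% lower, beside 8.53% and 5.76% of all tested genes. At a mean of 1 to 5 CPM, the range that holds UNC13A and SYN3, 14.5% of all genes were called higher, with a median of 0.15. UNC13A, which primes synaptic vesicles for release, had 0.853, 0.947 and 0.549 CPM in the controls and 2.45 and 2.41 CPM with ascorbic acid, higher by 1.61 ± 0.24 on the log2 scale (edgeR adjusted p = 2.60e-05). PCLO, an active zone scaffold gene, rose by 0.40 ± 0.07, from 21.6, 20.1 and 20.9 CPM to 26.5 and 28.8 CPM. The synapsin gene SYN3 rose by 0.58 ± 0.19, and RAB3A, a small GTPase gene of synaptic vesicles, fell (-0.53 ± 0.14). The SYN3 call ended without control replicate 1 or either treated replicate (0.44 to 0.67, adjusted p = 0.0603 to 0.257), and also with DESeq2, the replicate block and cyclic loess. The RAB3A call ended without control replicate 1 or treated replicate 2 (-0.47 to -0.39, adjusted p = 0.0672 to 0.143). Among the 21 called genes named from these lists, 14 lost the call in at least 1 left-out library, and all but APH1B, TENM1 and UNC13A were not called against a fold of 1.2.

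**Figure D4:**
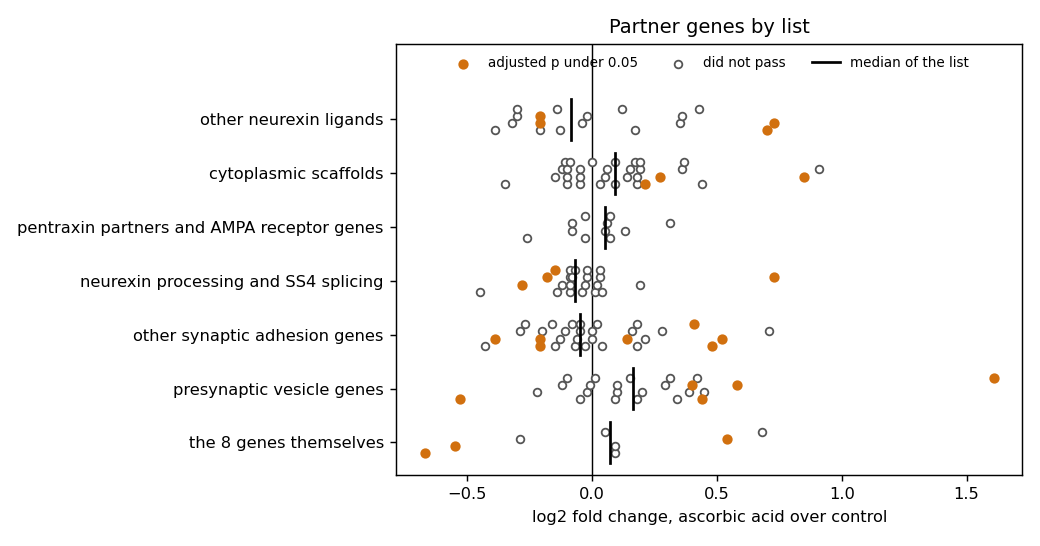
Log2 fold change, ascorbic acid over control (horizontal axis), of each tested gene in 6 partner lists and of the 8 genes themselves. Filled points passed an adjusted p of 0.05 and black bars are list medians, which lie between -0.09 and 0.17.

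Markers were checked for the labelled kidney origin and for other cells, and the genes called in these lists are named after their values were seen. Of 10 kidney markers PAX8, SLC34A1, UMOD and NPHS1 had at most 4 counts in every library. Of the 6 tested, LRP2 held most of the summed kidney level, with 29.9, 31.1 and 29 CPM in the controls and 22 and 21.9 CPM under ascorbic acid. Of 12 neuron markers 7 were tested and 1, NEFM, rose, while ELAVL4, STMN2 and DCX had at most 4 counts in every library. The summed neuron marker level was 49.2 to 52.0 CPM in the controls and 62.5 to 66.3 CPM with ascorbic acid. That is opposite in direction to NRXN3 and NPTX1 and the same as NPTXR. With only NEFM called, the sum is not read as a shift of the whole neuron list. Astrocyte markers summed to 229 to 244 CPM and 221 to 230 CPM, with SLC1A3 the 1 of 3 tested that fell. Oligodendrocyte markers summed to 6.73 to 7.63 and 9.28 to 10.1 CPM, with OLIG2 the 1 of 3 tested that rose. Kidney markers summed to 42.0 to 43.5 and 34.5 to 36.9 CPM, in the direction of NRXN3 and NPTX1, with LRP2 the 1 of 6 tested that fell. The fall of this sum was no larger than that of LRP2, so it does not describe the other kidney markers. LRP2 is also among the genes most like NRXN3 above. The fibroblast markers summed to 6.68 to 6.80 and 10.1 to 11.4 CPM, with COL1A1, the 1 tested, higher. Blood markers stayed between 1.5 and 1.85 CPM. No marker list had more than 1 called gene, so no sum is read as a shift of its whole list. Of all tested genes 8.53% were called higher and 5.76% lower. Of those with a mean of 1 to 5 CPM, 14.5% were called higher. The part of these marker shifts in the members' values was not tested. The cells are an established line, so the sums are not read as fractions of cell types. In bulk RNA a change in some of the cells cannot be told apart from a change in every cell.

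Under 18 other settings of filter, scaling, test and library set, the NRXN3 value lay between -0.74 and -0.60 (adjusted p = 3.67e-13 to 0.000370) and that of NPTX1 between -0.62 and -0.49 (adjusted p = 1.22e-08 to 0.0157). Both were called in all of them, including the test against a fold of 1.2 and each left-out library. NRXN2 lay between 0.43 and 0.87 and was called in 0 of 17, NLGN3 between -0.46 and -0.14, NLGN2 between 0.01 and 0.16, and NPTX2 between 0.03 and 0.13, all without a call. NLGN1 ran from -0.04 to 0.11 and thus had no stable sign.

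**Figure D5:**
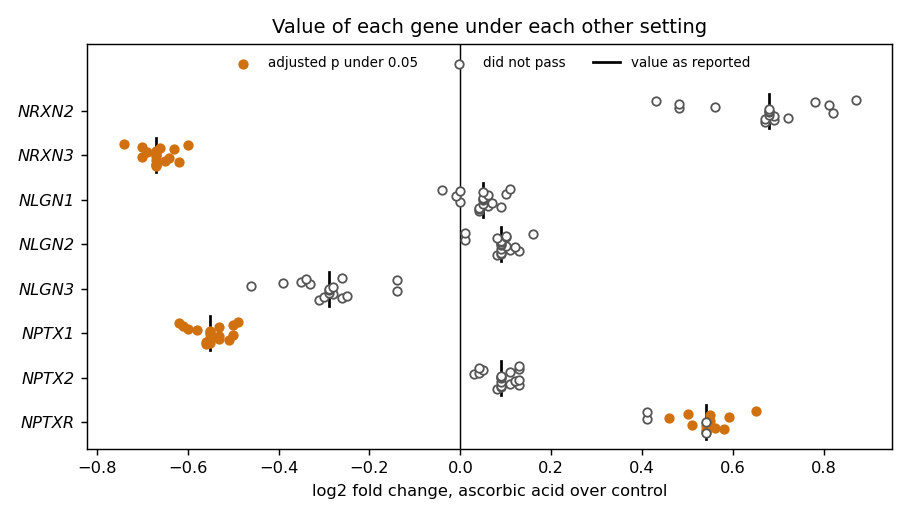
Log2 fold change of each gene (horizontal axis) under each other setting (points, filled where the adjusted p was under 0.05), with the reported value as a black bar. NRXN3 and NPTX1 are filled throughout, NPTXR has 4 open points, and the other 5 genes are open throughout.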

How the data were processed

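Bead-captured mRNA of 3 control and 2 ascorbic acid libraries was sequenced, per the labels. Per the submitters' processing notes, reads were trimmed with Trimmomatic 0.39, aligned with STAR to hg38 (GRCh38) and counted with featureCounts, and DESeq2 is also named. The authors deposited whole-number counts per gene symbol. Not given in the sources used here: annotation, strand setting and pair counting. Columns were assigned by name ("con" as control, "vc" as vitamin C, with the same number). Every row has a gene name.

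Genes were filtered with filterByExpr, scaled by TMM (factors 0.984 to 1.03) and compared by the two-sided quasi-likelihood test of edgeR 4.0.16 (R 4.3.3, robust prior), with Benjamini-Hochberg adjustment over 15271 genes and a threshold of 0.05. SEs and 95% intervals come from the fold change and F statistic. The test was checked on simulated data. Replicates differed by more than counting noise with every count taken as a separate fragment (chi-square per degree of freedom 3.95 to 7.20). That noise is larger if counts represent fewer fragments than their number. Lengths and positions are from GENCODE release 29, promoters from RefSeq (GRCh38.p14).

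The members and lists were chosen with earlier results of these data known. Named were all members; up to 3 called genes a direction per list by smallest p, or its 2 highest genes where none was called; and the 3 genes most like each of the 2 members with the smallest p. Alternatives were DESeq2 1.42.0, limma-voom (limma 3.58.1), other scalings and filters, a replicate block, no robust prior, glmTreat at 1.2, halved counts, cyclic loess, removal of GC and length trends (mgcv 1.9.3) and each library left out. Items withheld for evaluation are not reported here, so family shares and sums cover the members only.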

Additional observations from a re-analysis of the deposited data

How the results depend on the processing

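Of 141 values of the 8 genes under 18 alternatives, 134 kept their direction and side of the threshold. The NPTXR call ended in 4, and NLGN1 changed sign in 3: on cyclic loess values (-0.01), without control replicate 3 (-0.00) and without treated replicate 1 (-0.04). Its values ranged from -0.04 to 0.11 over left-out libraries. The cause was not tested. The members called lower were 2 in every alternative. The members called higher went from 1 to 0 with DESeq2, cyclic loess, a fold of 1.2 and the 5 CPM filter, where NPTXR, NRXN2 and NLGN3 were not tested, and ranged from 0 to 1 over left-out libraries.

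Partner genes called higher (14) were 5 with DESeq2, 9 with the 5 CPM filter, 3 against a fold of 1.2, 8 with cyclic loess and 6 to 15 over left-out libraries. Those called lower (9) were 0 against a fold of 1.2, 18 with GC and length trends removed and 4 to 9 over left-out libraries. All genes called higher (1303) were 806 with DESeq2, 275 against a fold of 1.2 and 790 to 1279 over left-out libraries. All genes called lower (879) were 389 with library totals, 542 with the 5 CPM filter, 11 against a fold of 1.2, 519 with cyclic loess, 1566 with GC and length trends removed and 335 to 768 over left-out libraries. No scaling shifted the values of genes by a median of more than 0.04 from those reported. The median log2 fold change of all genes was 0.05 with library totals.

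With the replicate number as a block, NRXN3 had -0.70 and NPTX1 -0.50, and no member's call changed. All genes called were 1076 higher and 804 lower. Deviations of same-numbered libraries correlated at -0.0404 for number 1 and 0.207 for number 2 over 10585 genes. Those of differently numbered libraries ran from -0.211 to 0.211, so no pairing by number is read from them. With 2 treated libraries the deviations mirror each other, so these values are not independent, and the labels tie no number to a batch. The block ended the calls of C1QL4, SYTL2 and SYN3 among the named partner genes. NRXN2 and NLGN3 rest on 24 to 94 counts a library. Their spread among controls was larger than counting error with every count taken as a separate fragment. Counting error is larger if counts represent fewer fragments. Leaving out 1 treated library lets the controls alone set the spread of the remaining one.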
